A study of Mus musculus with 11 samples.

Results

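The genes described here encode the proteins of the cytosolic ribosome. They were taken from the count table by gene symbol (Rpl or Rps and a number, with the ending a, x, l or l1 allowed, plus Rplp0, Rplp1, Rplp2 and Rpsa), a rule that uses no measured value. The rule found 81 of the 29307 listed genes: 30 genes of the small (40S) subunit, 43 of the large (60S) subunit, 3 of the P-stalk and 5 paralogs of core subunit genes. Ribosomal proteins with other symbols, such as Rps3a1 and Fau, fell outside it and are given further down.

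Libraries were made from sorted hepatic sinusoidal endothelial cells of 6 CONV-R and 5 GF mice, 1 library per mouse. CONV-R mice carried the microbiota of a specific-pathogen-free facility, and GF (germ-free) mice of the same colonies were kept in isolators without microbes. All were age-matched young adult male C57BL/6J mice without a genetic change, on the same diet. Cells were enriched with magnetic beads against CD146 and then sorted for CD31, CD105 and CD146, so the libraries describe a gated population and not whole liver. Total RNA was amplified to cDNA before library preparation, and reads were single and 50 bases long. The authors left out 1 GF library for its few mapped reads, without giving its number, and it was not analysed here. The GF replicate numbers used here skip 3.

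Each ribosome joins one copy of nearly every ribosomal protein to the ribosomal RNAs. Cells therefore make these proteins in matched amounts, and their mRNAs belong to the most abundant of most cells. Most of these mRNAs begin with a C and a run of pyrimidines, the TOP motif, through which mTORC1 and the RNA-binding protein LARP1 control their translation. The genes are short and have left many processed pseudogenes in mammalian genomes, copies of the mRNA without introns that can be nearly identical to it. A read of 50 bases from such an mRNA can match several places.

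Each library held between 7242717 and 16164588 counts on genes. All 16 markers of liver sinusoidal endothelium had enough counts to test, their summed level was between 37977 and 53281 counts per 1000000 counts (CPM) in every mouse, and none was called different by edgeR, with 7 higher and 0 lower in GF mice at an unadjusted p under 0.05 and a median log2 fold change of 0.24. Kupffer cell and macrophage markers, at a much lower level, summed to 90.1 to 236 CPM in CONV-R and 208 to 955 CPM in GF mice, and 7 of 11 rose in GF mice. Markers of other endothelium summed to 617 to 844 CPM in CONV-R and 700 to 1270 CPM in GF mice, and 3 of the 9 tested rose in GF mice, each without overlap of the groups: Ly6c1 by 3.15, Cd34 by 1.20 and Hey1 by 1.14 on the log2 scale (edgeR adjusted p = 1.22e-04, 0.00183 and 0.0127). Cholangiocyte markers summed to 0.137 to 8.96 CPM in CONV-R and 13.6 to 36.8 CPM in GF mice, and 1 of the 2 tested, Spp1, rose from 2.47 CPM ± 3.04 (SD, n = 6) to 13.2 CPM ± 0.961 (SD, n = 5, edgeR adjusted p = 0.0161). Hepatocyte markers summed to 32.5 to 70.5 CPM in CONV-R and 40.3 to 101 CPM in GF mice. Erythroid markers summed to 19.0 to 36.1 CPM in CONV-R and 4.88 to 24.3 CPM in GF mice, with a negative log2 fold change for all 5 tested and no call by edgeR (2 lower at an unadjusted p under 0.05). Of 6 B cell markers 5 had a negative log2 fold change and none was called lower, while Ebf1 rose by 1.70 (log2, edgeR adjusted p = 0.0375). The neutrophil marker Elane had no count in any library. In these bulk libraries fewer cells of a type and less RNA per cell cannot be told apart.

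How far these genes can be told from their copies is shown by the sequences themselves. Every stretch of 50 bases of each gene's principal mRNA (GENCODE M21, GRCm38) was looked up in the transcripts of all other genes. The following stretches of the coding sequence are, in each mRNA, the one found in the most other genes, and the position is counted in bases from the A of the start codon. That of Rps28 (bases 26 to 75), the gene called in the comparison, was in 6 other genes, all pseudogenes. That of Rps27 (161 to 210) was in 5 others and that of Rpl7a (429 to 478) in 45 others. That of Rpl4 (45 to 94), the member with the most counts, was in 1 other gene.
Rps28: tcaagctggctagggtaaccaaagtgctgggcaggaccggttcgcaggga
Rps27: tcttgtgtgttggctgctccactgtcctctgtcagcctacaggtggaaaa
Rpl7a: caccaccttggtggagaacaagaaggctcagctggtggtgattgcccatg
Rpl4: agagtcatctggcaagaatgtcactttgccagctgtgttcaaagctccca

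The start of transcription was read for 61 of the 81 genes, 73 starts in all, from RefSeq promoters (GRCm38.p6). A C followed by at least 4 pyrimidines exactly at the annotated start was present in 13 of the 61 genes (21.3%), against 3.01% of all 27025 genes with a promoter. RefSeq starts can lie a few bases from the true start, so a missing run says only that the letters are not at that position. The next lines give 10 bases before and 20 bases from the start for members the results turn on (Rps28, Rps27, Rplp2, Rps9 and Rps15), and for Rps6 and Rps10 as clear cases of the run. Capitals mark the run. The letters of an ETS family binding site, CCGGAAG on either strand, were found within 250 bases before to 50 after the start of 25 of the 61 genes (41.0%), against 9.93% of all genes.
Rps28 (chr17:33824543-33824572, minus strand): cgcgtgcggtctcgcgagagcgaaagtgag
Rps27 (chr3:90213629-90213658, minus strand): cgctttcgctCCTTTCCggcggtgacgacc
Rplp2 (chr7:141447641-141447670, plus strand): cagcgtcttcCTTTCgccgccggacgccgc
Rps9 (chr7:3704031-3704060, plus strand): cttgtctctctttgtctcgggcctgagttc
Rps15 (chr10:80292421-80292450, plus strand): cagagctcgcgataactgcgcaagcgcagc
Rps6 (chr4:86857348-86857377, minus strand): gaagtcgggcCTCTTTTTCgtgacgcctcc
Rps10 (chr17:27635225-27635254, minus strand): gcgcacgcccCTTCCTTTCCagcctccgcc

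Ribosomal protein genes took a small share of the counts. Between 12576 and 29638 counts of a library fell on the 81 genes. In CONV-R mice the share was 0.148% at the lowest, 0.171% at the median and 0.253% at the highest. In the GF mice it was 0.183% in replicate 1, 0.131% in replicate 2, 0.210% in replicate 4, 0.223% in replicate 5 and 0.161% in replicate 6. The groups overlapped, with means of 0.182% ± 0.0385 (SD, n = 6) and 0.182% ± 0.0371 (SD, n = 5). The 77 genes of the mitochondrial ribosome, which work in a separate ribosome, took 0.101% to 0.136% in CONV-R and 0.0868% to 0.123% in GF mice. The median share of 50-base stretches found in another gene was 53.3% for the members and 3.01% for the mitochondrial genes. The part of this in the shares of counts was not tested.

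Levels among the members differed widely. Per kilobase of the principal transcript, Rpl4 (241 CPM per kb) and Rpl8 (90.5 CPM per kb) had some of the highest mean levels over all 11 libraries. Rpl4 lines the exit tunnel of the large subunit, and Rpl8 lies close to the peptidyl transferase centre. Rpl4 alone had 44847 of the counts over all libraries, while the median member had 1231. Rpsa, the laminin receptor and 40S component, reached 1.19 CPM per kb, and Rpl35, a protein at the exit tunnel, 0.503 CPM per kb. The length is that of the annotated principal transcript, which for a few members has a long 3′ end and then lowers the value per kb.

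Members with a mostly unshared sequence held a large part of the counts. Among the 76 members that are not paralogs, 9 had fewer than 25% of their 50-base stretches in another gene, and these 9 held 48.3% of all member counts with a median level of 32.7 CPM per kb. The 22 members with 75% or more of their stretches shared held 11.96% of the counts, with a median of 8.16 CPM per kb. Rps3 shared 2.96% of its stretches, Rpl8 7.86% and Rpl4 16.5%, whereas Rpl35 shared 95.1%, Rpl23a 85.7% and Rpl36 81.1%. Sharing and level did not always go together: Rpl9 shared 93.3% of its stretches at 42.5 CPM per kb and Rpl30 79.2% at 32.7 CPM per kb, both named after their values were seen. Across the 76 genes, which share their libraries, the Spearman correlation of mean CPM per kb with the shared percentage was -0.36. Rps29, a zinc-binding protein of the 40S head, had 1.28 CPM per kb with 35.8% of its stretches shared. Of the 10236 processed pseudogenes in the annotation, 736 were listed in the count table. How reads with several matches were counted is not given in the sources used here, and its part in these levels was not tested.

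**Figure D1:**
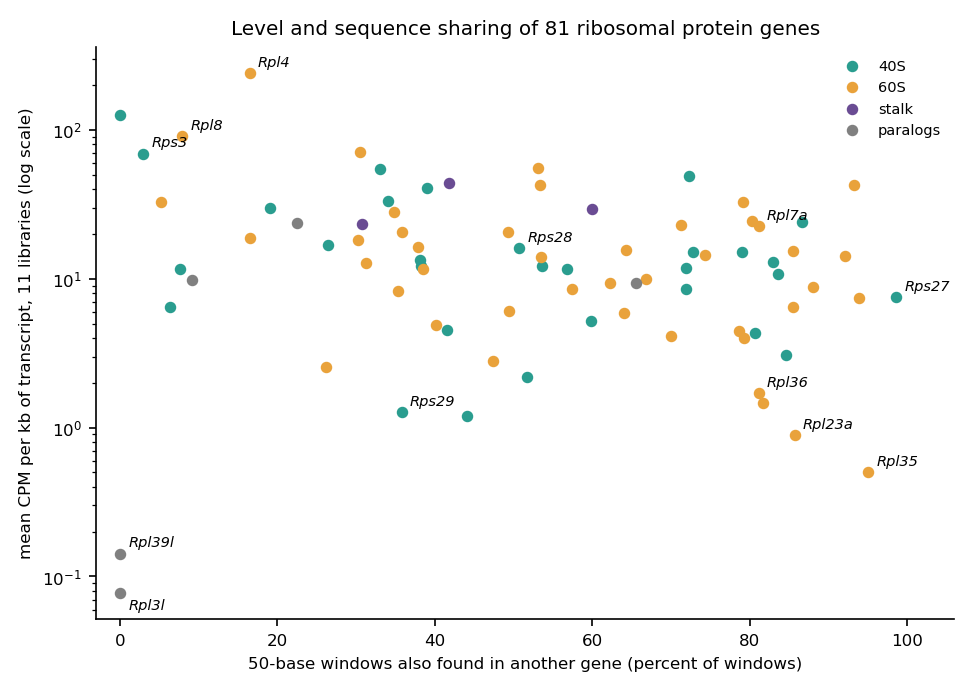
Each point is 1 of the 81 ribosomal protein genes, with the percentage of its 50-base stretches that occur in another gene on the horizontal axis and its mean CPM per kb of transcript over 11 libraries on a logarithmic vertical axis, coloured by subunit. Rpl4, Rps3 and Rpl8 stand at the upper left, while Rpl35, Rpl23a and Rpl36 (0.503, 0.896 and 1.71 CPM per kb) stand at the lower right, and the paralogs Rpl39l and Rpl3l lie lowest with no stretch shared.

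The comparison asked whether the ribosomal protein mRNAs of sinusoidal endothelial cells differ between mice with and without microbiota. Of the 81 genes 75 had enough counts to test with edgeR's quasi-likelihood test on all 12905 tested genes. One of them, Rps28, rose in GF mice at a Benjamini-Hochberg adjusted p under 0.05, and none fell. This was 1.33% of the members tested, against 7.48% of all tested genes called in either direction and 4.80% called higher in GF mice. At an unadjusted p under 0.05 there were 7 members higher (9.33% of those tested) and 0 lower, against 12.5% higher and 10.5% lower of all tested genes. DESeq2 called 2 members, Rps28 and Rps9, both higher, against 9.83% of all genes with an adjusted p. The CPM values of the groups did not overlap for 2 members, Rps28 and Rps27 (2.67%), against 5.59% of all tested genes.

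The members stood on both sides of no difference. The log2 fold change (GF over CONV-R) was positive for 41 and negative for 34 of the 75 genes, with a median of 0.02 (interquartile range -0.22 to 0.25) beside -0.01 over all tested genes. It ran from -0.59 for Rpl39 to 0.87 for Rps27. For 58 of the 75 genes (77.3%) the whole 95% confidence interval lay within a 2-fold change in either direction, beside 69.7% of all tested genes. The median width of that interval was 1.03 on the log2 scale, beside 0.83 over all tested genes. By subunit the median was 0.13 for the 29 tested 40S genes (19 positive, 10 negative) and -0.03 for the 40 tested 60S genes (18 positive, 22 negative). The 12 tested genes with a run of pyrimidines at the start had a median of -0.20 and no call, and the 46 without it a median of 0.01 and 1 call.

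**Figure D2:**
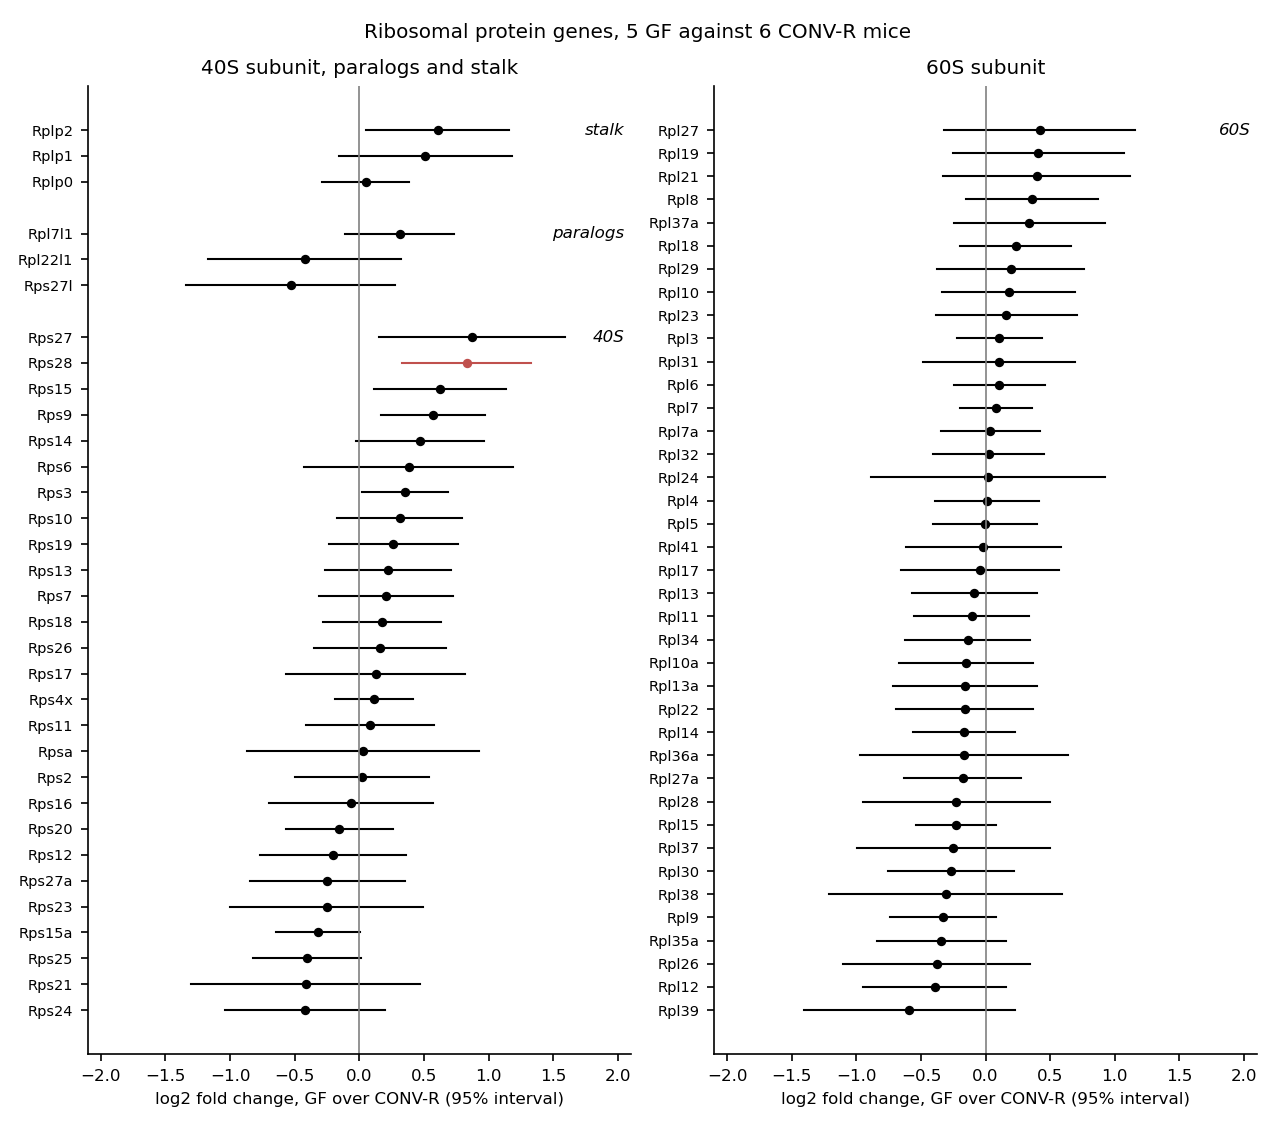
Points give the log2 fold change of 72 of the 75 tested genes, GF over CONV-R, and lines the 95% confidence interval, ordered within 40S, paralog, stalk and 60S genes. Rps28, drawn in red, is the only gene with an adjusted p under 0.05 in edgeR, and most intervals cross 0.

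Rps28, a small protein at the mRNA exit region of the 40S subunit whose gene lies on chromosome 17 (GRCm38, chr17:33819027-33824562, minus strand), was the member called. Its level in CONV-R mice was 3.57 CPM at the lowest, 4.98 at the median and 5.49 at the highest. In GF mice it was 7.34, 7.63, 7.71, 12.3 and 6.65 CPM in replicates 1, 2, 4, 5 and 6. Every GF mouse was above every CONV-R mouse, and GF replicate 5 stood above the other GF mice. The log2 fold change was 0.83 ± 0.24 (SE, 95% interval 0.33 to 1.33, edgeR adjusted p = 0.0409). These levels rest on 761 counts over all libraries, and 50.7% of the stretches of Rps28 occur in 8 other genes, all pseudogenes and none of them listed in the count table. The call was lost when any single mouse other than GF replicate 6 was left out (adjusted p 0.0562 to 0.0903 with edgeR), where the log2 fold change was 0.65 without GF replicate 5 and 0.76 to 0.88 in the other such fits. Kupffer cell markers were higher in GF mice as well (208 to 955 CPM against 90.1 to 236 CPM), and their part in this result was not tested. In the authors' normalized log2 values Rps28 was at 5.61 ± 0.17 (SD, n = 6) in CONV-R and 6.21 ± 0.24 (SD, n = 5) in GF mice, again without overlap. In those values 2 of the 81 members did not overlap, against 2.76% of all genes listed there.

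Rps27, a zinc finger protein of the 40S subunit also called metallopanstimulin, had the highest fold change but was not called. CONV-R mice had 1.40 CPM at the lowest, 2.03 at the median and 2.32 at the highest. GF mice had 2.34, 3.19, 4.19, 2.38 and 5.29 CPM in replicates 1, 2, 4, 5 and 6. The groups did not overlap, although GF replicates 1 and 5 lay just above the highest CONV-R mouse and GF replicate 6 was highest. The log2 fold change was 0.87 ± 0.34 (SE, edgeR adjusted p = 0.134) on 309 counts in all. Nearly all of its sequence is shared: 98.6% of the stretches of Rps27 occur in another gene, so its level is uncertain.

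Rps15, which reaches into the decoding region of the 40S subunit, and Rps9, which helps to form the mRNA entry channel, were the next genes of the small subunit. Rps15 was at 10.9, 16.5 and 20.6 CPM (lowest, median, highest) in CONV-R mice. In GF mice it was at 31.2, 12.7, 37.6, 27.8 and 17.4 CPM in replicates 1, 2, 4, 5 and 6. GF replicates 1, 4 and 5 were above every CONV-R mouse, and GF replicates 2 and 6 lay within the CONV-R range. The log2 fold change of Rps15 was 0.62 ± 0.24 (SE, edgeR adjusted p = 0.132), with 0.80 (adjusted p = 0.0389) without GF replicate 2 and 0.44 (adjusted p = 0.321) without GF replicate 4. No other fit with a single mouse left out called Rps15. Rps9, described after its values were seen because DESeq2 called it (adjusted p = 0.0474), was at 24.3, 32.3 and 50.1 CPM in CONV-R mice. In GF mice Rps9 was at 62.2, 39.1, 59.5, 46.5 and 40.7 CPM. The GF values were above all CONV-R mice except CONV-R replicate 1, which had the 50.1 CPM. With edgeR the adjusted p of Rps9 was 0.0776, on a log2 fold change of 0.57 ± 0.19 (SE), and edgeR called Rps9 when CONV-R replicate 1 was left out.

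Rps3 and Rplp2 also had an unadjusted p under 0.05. Rps3, a 40S protein of the mRNA entry that also acts in DNA repair, had a mean of 118 CPM ± 21.8 (SD, n = 6) in CONV-R and 150 CPM ± 35.6 (SD, n = 5) in GF mice, with an edgeR adjusted p of 0.191. The groups overlapped for Rps3, as they did for Rplp2, given next with the stalk.

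The P-stalk, made of Rplp0 and dimers of Rplp1 and Rplp2, recruits the elongation factors to the large subunit. Rplp0, the base of the stalk and a common reference gene in qRT-PCR, was at 46.1, 57.5 and 69.7 CPM (lowest, median, highest) in CONV-R mice and at 67.7, 41.5, 73.6, 67.8 and 51.9 CPM in GF mice, with a log2 fold change of 0.05 ± 0.16 (SE, edgeR adjusted p = 0.899). Its 95% interval of -0.29 to 0.38 was among the narrower ones. Rplp1 was at 6.83, 10.1 and 27.3 CPM in CONV-R mice and at 20.7, 11.4, 25.7, 16.1 and 14.2 CPM in GF mice, with a log2 fold change of 0.51 ± 0.32 (SE, edgeR adjusted p = 0.359). The 27.3 CPM were those of CONV-R replicate 1 alone, and without this mouse the log2 fold change of Rplp1 was 0.91 (adjusted p = 0.0314), whereas without GF replicate 4 it was 0.33 (adjusted p = 0.626). Rplp2 was at 12.6, 14.0 and 28.4 CPM in CONV-R mice and at 29.3, 13.9, 36.7, 30.5 and 27.4 CPM in GF mice. CONV-R replicates 1 and 3 lay with the GF mice and GF replicate 2 with the CONV-R mice, and the log2 fold change was 0.61 ± 0.26 (SE, edgeR adjusted p = 0.177). With same-numbered mice as blocks, which drops CONV-R replicate 3, edgeR called Rplp2 (0.76, adjusted p = 0.0480). It also did so without CONV-R replicate 3 and with GC content and length correction (0.77, adjusted p = 0.0347). No fit that only left out a single mouse called Rplp2 (0.48 to 0.78, adjusted p 0.0699 to 0.345).

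Rpl4 and Rpl8, with many counts per length, did not pass the test. Rpl4 was at 269, 320 and 625 CPM (lowest, median, highest) in CONV-R and at 377, 265, 465, 362 and 391 CPM in GF mice (log2 fold change 0.01 ± 0.19, SE, edgeR adjusted p = 0.987). Rpl8 was at 49.9, 59.9 and 105 CPM in CONV-R and at 123, 46.6, 122, 62.4 and 83.1 CPM in GF mice (0.36 ± 0.24, SE, edgeR adjusted p = 0.406). Without GF replicate 1 or 4 the log2 fold change of Rpl8 was 0.20 or 0.21. GF replicates 1 and 4 were the highest GF mice for Rpl8, and GF replicate 2 was the lowest for both genes. Rps27a, which is made as a fusion with ubiquitin, had means of 7.28 CPM ± 2.02 (SD, n = 6) and 6.12 CPM ± 2.34 (SD, n = 5), and Rpsa had means of 2.29 CPM ± 1.38 (SD, n = 6) and 2.32 CPM ± 0.864 (SD, n = 5).

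The lowest fold changes belonged to Rpl39, Rps27l and Rpl22l1. Rpl39, a very small protein of the exit tunnel, was at 8.47, 9.87 and 31.3 CPM in CONV-R mice and at 7.02, 3.57, 9.998, 17.5 and 7.05 CPM in GF mice (log2 fold change -0.59 ± 0.39, SE, edgeR adjusted p = 0.384). Its highest CONV-R value was that of replicate 3, and without this mouse the log2 fold change was -0.17. Without GF replicate 5, the highest GF mouse, the log2 fold change of Rpl39 was -0.96. That of Rps27l was -0.53 ± 0.38 (SE, edgeR adjusted p = 0.440), -0.04 without CONV-R replicate 3 and -0.83 without GF replicate 5. None of these genes passed the test. Across the 75 genes, 15 were more than 2-fold higher in CONV-R replicate 3 than the median of the other CONV-R mice, against 6.65% of all tested genes. These included Rpl22, Rpl22l1, Rpl23, Rpl26, Rpl36a, Rpl37, Rpl38, Rpl39, Rpl41, Rplp2, Rps21, Rps24, Rps27l and Rpsa, of which those outside the rule for naming were listed after their values were seen. The median log2 fold change of the 15 was -0.31 with CONV-R replicate 3 and 0.07 without it, a rise that their choice by this library fixes. That of the other 60 tested members was 0.09 and 0.15.

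**Figure D3:**
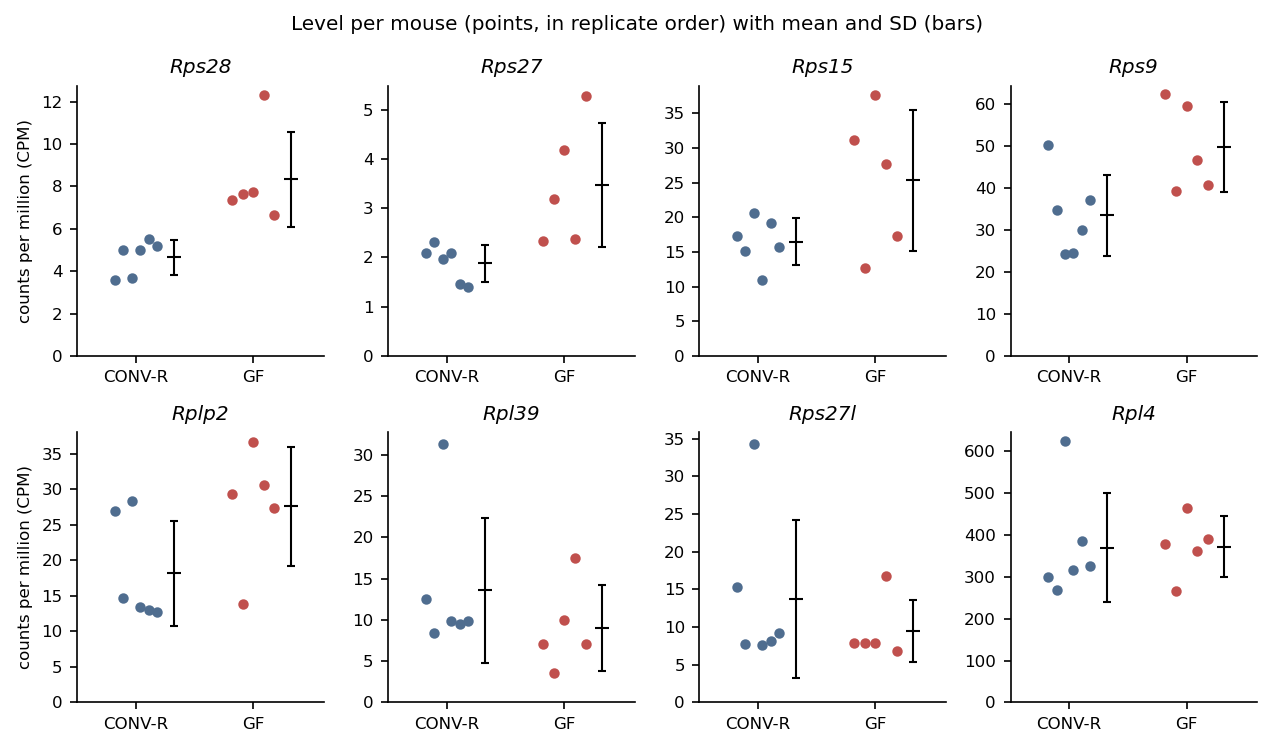
Each point is the CPM of 1 mouse for 8 members, CONV-R in blue and GF in red in order of replicate number, with the group mean and SD beside it on axes that start at 0. The groups are apart for Rps28 and Rps27, overlap for the other 6 genes, and CONV-R replicate 3 lies far above its group for Rpl39, Rps27l and Rpl4.

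Some libraries were high or low for most members, in both groups. Relative to its mean over the libraries, the median tested member was 0.25 higher (log2) in CONV-R replicate 3, 0.19 higher in CONV-R replicate 1, 0.23 higher in GF replicate 4 and 0.34 higher in GF replicate 5, and 0.31 lower in GF replicate 2, 0.19 lower in CONV-R replicate 2 and 0.18 lower in CONV-R replicate 4. In GF replicate 5, 68 of the 75 members were above their mean, against 15 in GF replicate 2, 17 in CONV-R replicate 2 and 16 in CONV-R replicate 4. CONV-R replicate 3 and GF replicate 5, with 7922855 and 7242717 counts, were the shallowest libraries of their groups. In both, deviations of all tested genes correlated with transcript length (Pearson r = -0.20 and -0.14), whereas in GF replicate 2 the correlation had the other sign (0.19), as it did in GF replicate 6 (0.12), which at 7819846 counts was shallower than CONV-R replicate 3, and in GF replicate 1 (0.15), the deepest library. Over the members alone the values of CONV-R replicate 3 and GF replicates 5, 2, 6 and 1 were -0.10, -0.20, 0.06, -0.03 and -0.14. The paper reports fewer sorted cells and less total RNA from GF than from CONV-R livers, and a low viability of the sorted cells. Amplification started from a fixed amount of RNA, but cell and RNA yield cannot be told apart from the group. The part of length, depth, yield or RNA quality in these deviations was not tested.

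GC content moved with the members as well. Over the 75 tested members the log2 fold change had a Pearson correlation of 0.36 with the GC percentage of the transcript, beside 0.09 over all tested genes with an annotation. In single libraries the members' deviations correlated with GC content at 0.42 in GF replicate 1, 0.41 in GF replicate 4 and 0.27 in CONV-R replicate 1, and at -0.29 in CONV-R replicate 4. The sign was the same over all tested genes in each of these libraries (0.28, 0.11, 0.32 and -0.22). These correlations run across genes, which share their libraries and are not independent replicates. With the counts of each library corrected for trends with GC content and length, a setting added after the data were seen, edgeR called Rps28 (log2 fold change 0.89, adjusted p = 0.0197) and Rps9.

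**Figure D4:**
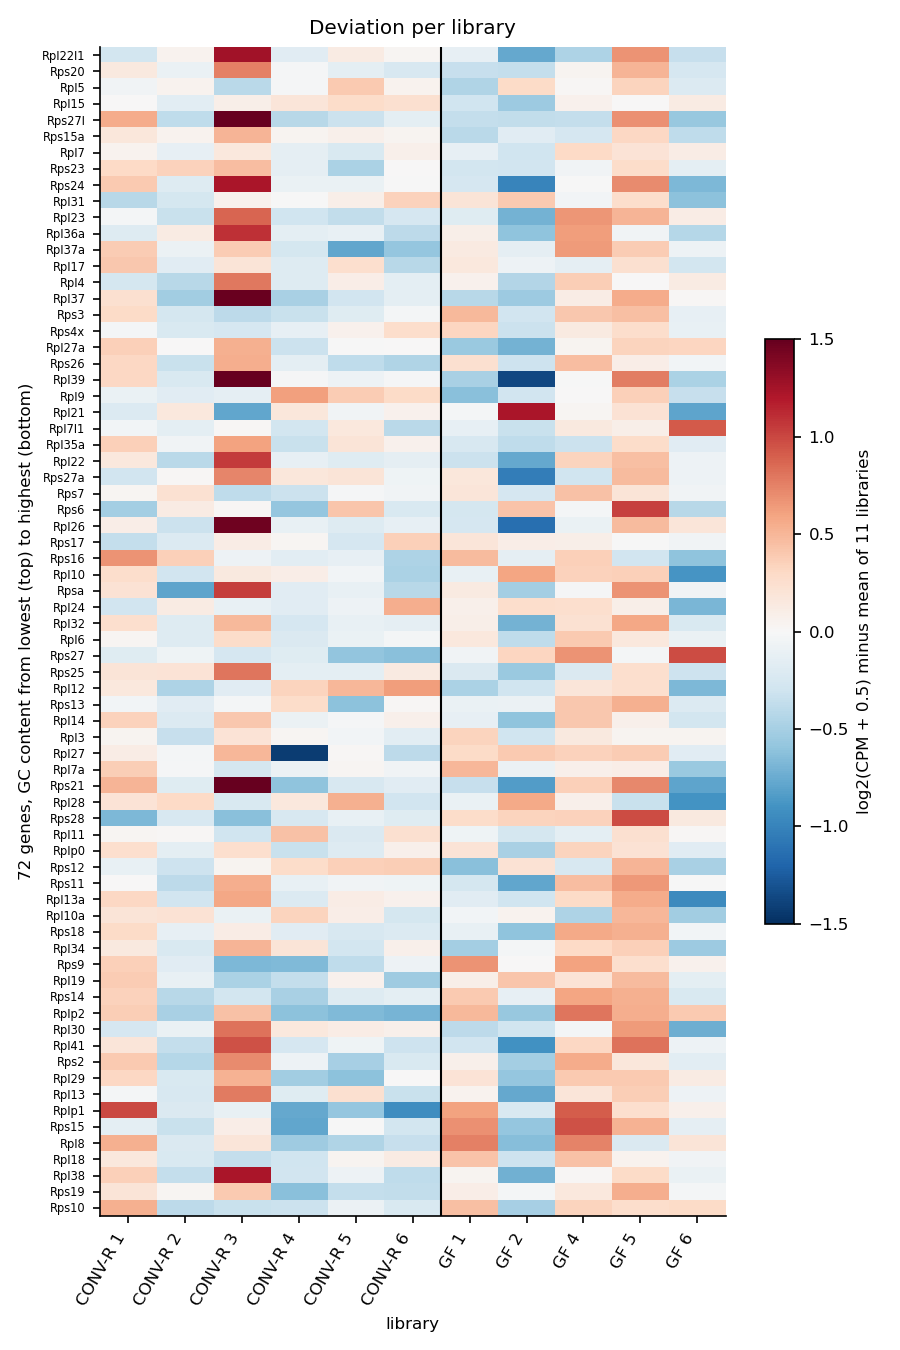
Colours give log2(CPM + 0.5) minus the mean of 11 libraries for 72 of the 75 tested members, ordered from the lowest GC content at the top to the highest at the bottom, with the scale ending at 1.5 in both directions and a line between CONV-R and GF mice. CONV-R replicate 3 and GF replicate 5 are high and GF replicate 2 is low for most members, and GF replicates 1 and 4 are high mainly towards the bottom.

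Paralogs of core subunit genes can replace their partners in some tissues, which was examined by the ratio of the paralog to the partner within each library. Rps27l, which responds to p53, was at 7.55, 8.70 and 34.3 CPM (lowest, median, highest) in CONV-R and at 7.93, 7.82, 7.90, 16.8 and 6.78 CPM in GF mice. Over all libraries its mean level was 23.6 CPM per kb beside 7.56 CPM per kb for Rps27, most of whose sequence is shared with copies. The log2 ratio of Rps27l to Rps27 was 2.61 ± 0.85 (SD, n = 6) in CONV-R and 1.42 ± 0.92 (SD, n = 5) in GF mice, a difference of -1.19 with p = 0.0563 in a two-sided exact permutation test (adjusted p = 0.169 over 3 pairs). Rpl22l1, which is known to compensate for loss of Rpl22, had 9.42 CPM per kb beside 32.7 CPM per kb for Rpl22, with log2 ratios of counts of -3.61 ± 0.34 (SD, n = 6) and -3.87 ± 0.45 (SD, n = 5, exact permutation p = 0.294, adjusted 0.416). The difference of -0.27 was -0.09 without GF replicate 4. The log2 fold change of Rpl22l1 itself was -0.42 ± 0.36 (SE, edgeR adjusted p = 0.517), -0.09 without CONV-R replicate 3 and -0.74 without GF replicate 5. Rpl7l1, a nucleolar relative of Rpl7 that acts in ribosome assembly, had log2 ratios of -1.06 ± 0.29 (SD, n = 6) and -0.87 ± 0.41 (SD, n = 5, exact permutation p = 0.416, adjusted 0.416). The difference of 0.19 was 0.0079 without GF replicate 6. Its level of 47.6 CPM in GF replicate 6 stood above the other GF mice, at 19.7 to 27.5 CPM. With 462 splits the smallest p this test allows is 0.00216.

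The 6 members with too few counts to test were Rpl23a, Rps29, Rpl35, Rpl36, Rpl39l and Rpl3l. Rpl23a, which docks nascent chain factors at the exit tunnel, had 2 to 11 counts per library, Rps29 had 1 to 10, Rpl35 had 2 to 10 and Rpl36 had 2 to 15. Rpl39l, a paralog of the male germ line, had 4 counts in CONV-R replicate 6 and 7 in GF replicate 6 and 0 in the other libraries. Rpl3l, the paralog of heart and skeletal muscle, had 14 counts in all. Both were at or near 0 in these endothelial cells. Rpl10l and Rps4l were not listed in the count table.

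Ribosomal proteins outside the symbol rule were not called either. Rps3a1, a 40S protein, was at 44.4 CPM ± 3.62 (SD, n = 6) in CONV-R and 43.4 CPM ± 8.26 (SD, n = 5) in GF mice, with a log2 fold change of -0.03 ± 0.14 (SE, edgeR adjusted p = 0.919). Fau, which encodes a 40S protein fused to a ubiquitin-like protein, had 6 to 16 counts per library. None of the 5 listed genes of this kind was called by edgeR, and none had an unadjusted p under 0.05. Of the 75 tested mitochondrial ribosomal protein genes, 1 was called (1.33%, beside 7.48% of all tested genes), and at an unadjusted p under 0.05 there were 6 lower and 0 higher. Mrpl32 fell from 20.5 CPM ± 8.06 (SD, n = 6) to 10.9 CPM ± 3.48 (SD, n = 5) in GF mice, a call kept in 5 of 11 fits with a mouse left out.

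The wider translation machinery was read from lists of known components, chosen with earlier results of these data known. Of 78 ribosome biogenesis genes none was called by edgeR, with 4 higher and 2 lower at an unadjusted p under 0.05 and a median log2 fold change of 0.07. Of 21 genes of RNA polymerase I and 5S RNA transcription 1 rose in GF mice: Polr1a, the largest subunit of RNA polymerase I, from 23.5 CPM ± 2.22 (SD, n = 6) to 36.6 CPM ± 5.28 (SD, n = 5), a log2 fold change of 0.64 (edgeR adjusted p = 0.00793). The groups did not overlap for Polr1a. Of 34 initiation factors 2 rose and none fell. Eif4h, a cofactor of the helicase eIF4A, rose by 0.35 (log2, edgeR adjusted p = 0.0321), and Eif6, which keeps the 60S subunit from joining early, by 0.59 (edgeR adjusted p = 0.0490). Of 15 elongation and nascent chain factors 1 fell: Naca, which binds nascent chains at the ribosome, dropped by 0.40 on the log2 scale from 82.1 CPM ± 9.70 (SD, n = 6) to 62.3 CPM ± 5.08 (SD, n = 5), with no overlap (edgeR adjusted p = 0.0397). With each of the 11 mice left out in turn, Polr1a was called in 11 fits, Eif4h in 4, Eif6 in 2 and Naca in 2. Some Kupffer cell, other endothelial and cholangiocyte markers were higher in GF mice as well, and their part in these calls was not tested. The counts of calls correspond to 0%, 4.76%, 5.88% and 6.67% of the tested genes of each list, beside the 7.48% of all tested genes.

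Regulators of ribosomal protein synthesis were read in the same way. Of 30 genes of mTORC1, Myc and TOP mRNA regulation 4 rose in GF mice (13.3%, beside 4.80% of all tested genes called higher and 7.48% called in either direction) and none fell, with a median of 0.05 over the list. Ddit4, an inhibitor of mTORC1 under stress, rose from 0.653 CPM ± 0.534 (SD, n = 6) to 7.15 CPM ± 3.89 (SD, n = 5), with an edgeR adjusted p of 5.86e-04. Sesn2, which holds mTORC1 back when leucine is scarce, rose from 12.8 CPM ± 3.77 (SD, n = 6) to 27.2 CPM ± 6.77 (SD, n = 5). Eif4ebp2, a repressor of cap-dependent initiation, rose from 124 CPM ± 26.9 (SD, n = 6) to 223 CPM ± 37.1 (SD, n = 5). Mxd4, an antagonist of Myc at shared sites, rose from 97.3 CPM ± 19.5 (SD, n = 6) to 178 CPM ± 26.4 (SD, n = 5). Of these 4 genes the groups overlapped for Sesn2 only, and each was called with any single mouse left out. The Kupffer cell, other endothelial and cholangiocyte markers that were higher in GF mice moved with these genes, and their part was not tested. Of 14 genes of nucleolar stress and p53 2 rose (14.3%, beside the same shares of all tested genes): Cdkn1a, the p53 target that halts the cell cycle, from 17.9 CPM ± 11.2 (SD, n = 6) to 99.2 CPM ± 16.5 (SD, n = 5, edgeR adjusted p = 1.08e-04), and Gltscr2, a nucleolar protein of 60S assembly, by 0.47 (log2, edgeR adjusted p = 0.0453). With each mouse left out in turn, Cdkn1a was called in 11 and Gltscr2 in 2 of 11 fits. Of 12 noncoding genes that host snoRNAs, whose transcripts begin with the TOP motif as well, 10 were tested and none was called by edgeR (0 higher and 1 lower at an unadjusted p under 0.05, median -0.19).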

How the data were processed

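RNA-seq counts of 11 libraries, 1 per mouse, were analysed. Reads were trimmed with Trim Galore, aligned with STAR to GRCm38 (mm10 per the labels) and counted per gene with featureCounts by the authors, who deposited whole-number counts per gene. Strand, annotation release and the treatment of reads with several matches are not given in the sources used here. The authors also deposited normalized log2 values, which were used only for overlap of the groups and for group means of Rps28. Groups were taken from the treatment label, and p-values measure the spread between mice.

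Genes with enough counts (filterByExpr, 12905 of 29307) were compared with edgeR 4.0.16 (TMM scaling, quasi-likelihood test, R 4.3.3), with Benjamini-Hochberg adjustment over all of them at 0.05. DESeq2 1.42.0 and limma voom 3.58.1 were alternatives. CPM are counts per 1000000 TMM-scaled counts. Paralog ratios (0.5 added to counts) were compared by a two-sided exact permutation test in SciPy 1.17.1. On simulated data with the real means and library sizes, the edgeR step recovered 80 of 100 genes changed 2-fold and 97 of 100 changed 4-fold. The simulation gave every gene the same dispersion and no shifts of whole libraries, so these shares need not hold for the members. Principal transcripts were taken from GENCODE M21 (29081 of 29307 genes matched), promoters from RefSeq. Among 50-base stretches, both strands were searched. Library totals of 7242717 to 16164588 counts bound the precision, which covers counting error only for single libraries.

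Named genes were those called, the 3 highest and 3 lowest fold changes, the 3 highest levels per kb, the stalk genes, Rpsa, Rps27a, the paralogs, those too low to test, and up to 4 called genes per translation list. The members' rule uses gene symbols only, but it and the lists were chosen with earlier results of these data known. Alternatives were other scalings, tools, filters, a replicate block, leaving out each mouse, libraries drawn down to equal totals and correction for GC content and length. Some members that the rule names are not reported here. No authors' columns of fold changes were used.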

Additional observations from a re-analysis of the deposited data

Results flagged for a closer look

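Single libraries that stood apart from the rest of their group were looked for by the gap to the nearest library relative to the group's range, which chance exceeds in about 5% of groups. CONV-R replicate 3 stood apart upwards for Rpl22l1 (12.2 CPM, the other CONV-R mice 3.88 to 5.25), Rpl39 (31.3 CPM, the others 8.47 to 12.6), Rpl4 (625 CPM, the others 269 to 385) and Rps27l (34.3 CPM, the others 7.55 to 15.4). The same held for 19 of the 75 tested members in this library. The share over all tested genes is not given here, so this count is not particular to the members. CONV-R replicate 1 stood apart for Rplp1 (27.3 CPM, the others 6.83 to 12.4).

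Among GF mice, replicate 5 stood apart upwards for Rps28 (12.3 CPM, the others 6.65 to 7.71) and Rps27l (16.8 CPM, the others 6.78 to 7.93). GF replicate 6 stood apart upwards for Rpl7l1 (47.6 CPM, the others 19.7 to 27.5) and for the log2 ratio of Rpl7l1 to Rpl7 (-0.15, the others -1.13 to -0.97). This library also had the highest sum of Kupffer cell markers, 955 CPM, whose part in the result was not tested.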

How the results depend on the processing

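The number of members called was 1 in edgeR and 1 under DESeq2 size factors, scaling without the ribosomal protein genes, limma voom, at least 10 counts in every library and robust dispersion, in each case Rps28. It was 2 with DESeq2, 0 without a filter, 0 with libraries drawn down to the smallest total, 2 with GC content and length correction, 2 with that correction and without CONV-R replicate 3, and 0 to 2 when single mice were left out. Without a filter 25329 genes shared the adjustment, the spread between mice was fitted anew, and 1134 genes were called, beside 965 in the main fit. The cause of these moves was not tested. The main fit did not pair the samples by replicate number. Correlations of same-numbered mice ran from -0.01 to 0.20 over 5 pairs. Differently numbered mice were not set beside them, so this cannot show whether same-numbered mice shared processing. The fit with the replicate block, which drops CONV-R replicate 3, called 1 member, Rplp2 (log2 fold change 0.76, adjusted p = 0.0480), and not Rps28 (0.76, adjusted p = 0.0755). The median log2 fold change of the members, 0.02, was -0.03 to 0.13 with single mice left out and at most 0.17 in the others.

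Of 330 values of 15 named genes under the alternatives, 17 changed sign, and all of these were far from the threshold. Rpl22l1 was at 0.0794 and Rps27l at 0.0497 without CONV-R replicate 3 and with GC content and length correction, Rpl4 at -0.0010 without a filter and Rpsa at -0.0414 with libraries drawn down. Leaving out single mice gave -0.0850 to 0.22 for Rpl4, -0.0327 to 0.16 for Rplp0 and -0.19 to 0.38 for Rpsa. The log2 ratio of Rps27l to Rps27 differed by -1.53 to -0.90 when single mice were left out, with exact permutation p-values, not adjusted over the 3 pairs, of 0.0190 to 0.124. The unadjusted value was under 0.05 without CONV-R replicate 2 (0.0476) or GF replicate 5 (0.0190). With single mice left out, 6 to 14 genes of the other translation lists were called instead of 10, with 6 left without CONV-R replicate 2, 4, 5 or 6 or GF replicate 1 or 6. The difference of the share of counts, GF minus CONV-R, was -0.0110 to 0.0137 percentage points. Low counts limit some members: 6 could not be tested, and Rps27 and Rpsa rest on 309 and 270 counts.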
